A study of Mus musculus with 6 samples.

Results

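The transcription factors that specify and maintain photoreceptors were followed in mouse retina. The 10 genes Crx, Nrl, Nr2e3, Otx2, Neurod1, Rorb, Mef2d, Esrrb, Thrb and Rxrg were taken by symbol from a table of 25124 gene models, and each was found once. Whole retinas of C57BL/6J mice aged 4 months were profiled by strand-specific sequencing of polyadenylated RNA, in 3 libraries from Elovl2 C234W mice and 3 from wild-type (WT) mice. Elovl2 elongates the long fatty acid chains from which docosahexaenoic acid is made, a major component of rod and cone membranes, and C234W replaces a cysteine of the enzyme with a tryptophan. The C234W libraries are named FS3A, FS3B and FS5A and the WT libraries WT1A, WT2A and WT2B in the table. The prefix FS is not explained and was taken as C234W by elimination, on which every direction below rests. The labels give neither the number of mutated copies nor the animal behind each library. The names FS3A and FS3B carry 1 number, as do WT2A and WT2B, so p-values cover only the spread among these libraries, which may be technical.

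Photoreceptors arise from dividing retinal progenitors through a relay of transcription factors. Otx2 commits a cell to the photoreceptor path and switches on Crx, and Crx, Neurod1, Rorb and Mef2d act in rods and cones alike. Nrl decides for the rod fate and acts through Nr2e3, which raises rod genes and silences cone genes, while the thyroid hormone receptor Thrb and the retinoid receptor Rxrg set which opsin a cone makes. In the adult most of these factors stay on and hold the level of opsins, transducins and the other parts of the light response. Several also act elsewhere in the retina: Otx2 in bipolar cells and pigment epithelium, Rorb in amacrine and horizontal cells, and Neurod1 in amacrine cells.

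The libraries held between 14184093 and 19298613 counts in genes, and 14685 gene models had enough counts to be tested, the 10 factors among them. Levels are given as CPM (counts scaled to a common library size) with TMM scaling, and differences as the log2 fold change of C234W over WT from the quasi-likelihood test of edgeR, with p-values adjusted by Benjamini-Hochberg over all tested genes. Elovl2 itself was at 96.1 ± 17.9 CPM in C234W and 138.7 ± 3.01 CPM in WT retinas (SD, n = 3 each), which does not check the labels, since a substitution need not alter the level of its transcript. The rod marker Gnat1 was abundant, at 13445 to 17246 CPM in C234W and 19726 to 33481 CPM in WT libraries, and the 6 lens markers summed to under 1 CPM in every library. WT1A stood apart from the other libraries: 13 markers of pigment epithelium summed to 880.9 CPM in it, against 141.3 to 207.6 CPM in C234W libraries and 100.1 to 216.2 CPM in the other WT libraries. In a bulk sample, fewer cells of a type and less RNA per cell cannot be told apart.

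In C234W retinas, 0 of the 10 factors passed the threshold of an adjusted p under 0.05, where 1.46% of all tested genes did (0.184% higher and 1.28% lower). The rod factors Nrl and Nr2e3 had the lowest fold changes, about -0.6 on the log2 scale, followed by Esrrb and Crx, and Neurod1 and Rorb the highest, at 0.62 and 0.57. At an unadjusted p under 0.05 there was 1 factor, Neurod1, against 25.4% of all tested genes. Neurod1 was also the 1 factor whose 3 C234W and 3 WT libraries did not overlap, against 29.1% of all tested genes. A count of 1 in 10 lies below either background and is not read as a result about the factors. DESeq2 called 1 factor, Neurod1 (adjusted p = 0.0489), where it called 11.9% of the genes it tested, and limma-voom called 0 factors, where it called 1.63%.

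**Figure D1:**
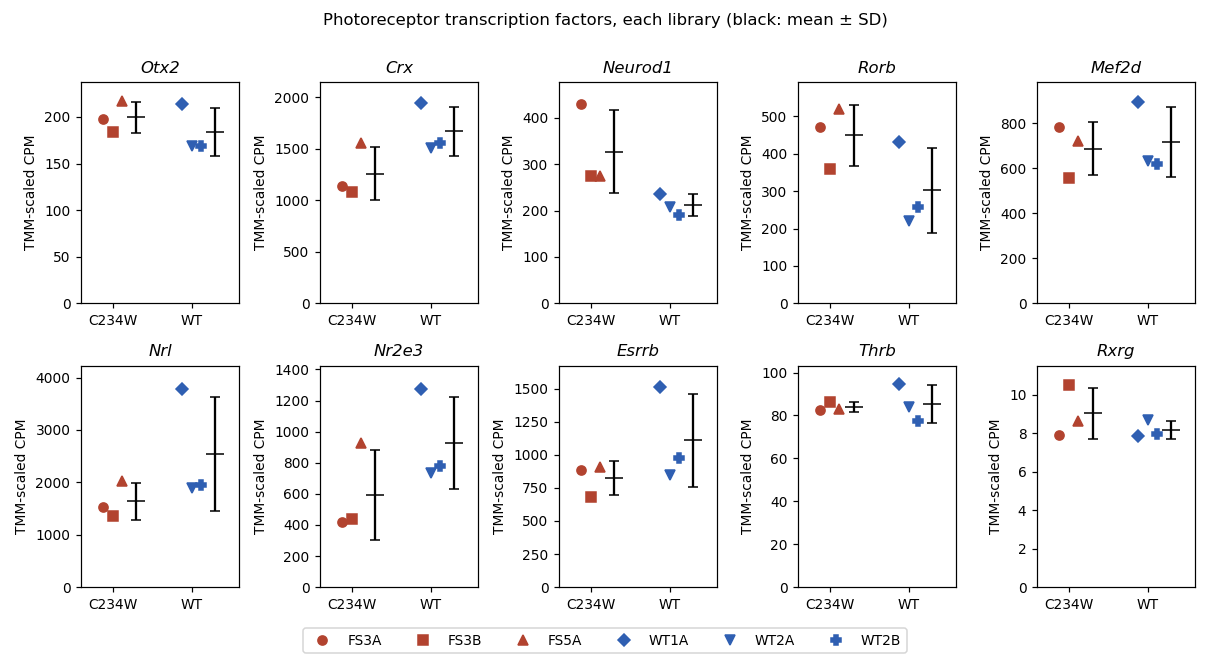
Level of each factor in every library, in TMM-scaled CPM, with C234W libraries in red on the left of each panel and WT libraries in blue on the right; black bars give the mean ± SD over 3 libraries. For Neurod1 the lowest C234W library lies above the highest WT library, and for the other 9 factors the groups overlap.

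The factors differed widely in level per transcript length. As TPM, which divides counts by transcript length and can be compared between genes, Nrl was highest with 1994 ± 399 TPM in C234W and 2436 ± 898 TPM in WT retinas, and Rxrg lowest with 12.9 ± 2.19 TPM in C234W and 9.34 ± 1.03 TPM in WT retinas (SD, n = 3 each). In C234W retinas the order of the mean TPM was Nrl, Crx, Nr2e3, Esrrb, Neurod1, Mef2d, Otx2, Rorb, Thrb and Rxrg. The libraries of neighbours in that order overlapped from Crx through Mef2d, whereas Nrl lay above Crx, and Mef2d, Otx2, Rorb, Thrb and Rxrg followed each other without overlap. In WT retinas Neurod1 and Mef2d stood the other way round, with Mef2d at 277.9 to 375.3 TPM and Neurod1 at 186.3 to 215.6 TPM, and the only overlapping neighbours were Crx with Nr2e3 and Neurod1 with Otx2. In C234W retinas Mef2d, at 318.5 to 430.8 TPM, and Neurod1, at 329.5 to 514.2 TPM, overlapped. Nrl, Crx and Nr2e3 lay above 99% of all tested genes in their mean WT level.

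Otx2, the homeodomain factor at the head of the relay, differed little. It was at 197.3, 183.8 and 217.2 CPM in the C234W libraries FS3A, FS3B and FS5A, against 213.7, 168.8 and 169.2 CPM in WT1A, WT2A and WT2B. Its 3 C234W libraries lay inside or just above the range of the WT libraries, and the log2 fold change of 0.12 (SE 0.159) was smaller than its error (edgeR adjusted p = 0.675). RefSeq lists 4 start sites for Otx2, and the table counts a single isoform (NM_001360225, chr14:48657677-48667508, minus strand, mm10).

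Crx, the homeodomain factor that Otx2 switches on and that binds in front of many rod and cone genes, was at 1139, 1081 and 1556 CPM in the C234W libraries FS3A, FS3B and FS5A, against 1943, 1512 and 1558 CPM in WT1A, WT2A and WT2B. FS3A and FS3B were the 2 lowest libraries, while FS5A lay between WT2A and WT2B. This gave a log2 fold change of -0.41 (SE 0.206, edgeR adjusted p = 0.245). Crx lies on chromosome 7 (NM_007770, chr7:15865947-15879955, minus strand, mm10). The 237 bases that end 14 bases before its start are shown because they hold the letters that Crx and Otx2 themselves recognise, TAATCC, at 2 places, 94 and 21 bases before the start. Both lie on the opposite strand, so that they read GGATTA in the capitals of this RefSeq sequence (GRCm38.p6, chr7:15879969-15880205, minus strand):
Crx: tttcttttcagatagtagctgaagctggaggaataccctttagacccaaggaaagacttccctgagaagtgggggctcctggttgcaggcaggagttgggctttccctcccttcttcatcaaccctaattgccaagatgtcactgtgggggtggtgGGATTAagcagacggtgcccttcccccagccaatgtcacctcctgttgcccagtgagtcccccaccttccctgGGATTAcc
TAATCC on either strand occurred within the window from 250 bases before to 50 after the start in 5.97% of the 11464 tested genes with such a window, and in 2 of the 10 factors, Crx and Thrb. A match is a description of the letters and shows no binding.

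Neurod1, a basic helix-loop-helix factor needed for the survival of photoreceptors, was at 430.1, 274.6 and 275.4 CPM in the C234W libraries FS3A, FS3B and FS5A, against 236.7, 207.4 and 191.4 CPM in WT1A, WT2A and WT2B. The 3 C234W libraries lay above the 3 WT libraries, and FS3A stood well above the other two. Neurod1 averaged 326.7 ± 89.5 CPM in C234W and 211.8 ± 23.0 CPM in WT retinas (SD, n = 3 each). Its log2 fold change of 0.62 (SE 0.209) did not reach the threshold (edgeR quasi-likelihood adjusted p = 0.118). Without FS3A it was 0.38 (SE 0.183, adjusted p = 0.35), and it was above 0 under each of the 16 alternatives run. The Neurod1 model (NM_010894, chr2:79452639-79456636, minus strand, mm10) shares 201 exon bases with a transcript of its neighbour Cerkl on the same strand in the GENCODE annotation. Cerkl had 314.5 to 575 counts in the 6 libraries, against 2602 to 7856 counts for Neurod1.

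Rorb, a nuclear receptor that acts upstream of Nrl, was at 471.1, 358.1 and 518.6 CPM in the C234W libraries FS3A, FS3B and FS5A, against 430.6, 219.6 and 256.5 CPM in WT1A, WT2A and WT2B. WT1A lay among the C234W libraries, and WT2A and WT2B lay below all of them. Rorb had a log2 fold change of 0.57 (SE 0.266, edgeR adjusted p = 0.213). It depended on a library and on transcript length. Without WT1A Rorb passed the threshold, with 0.92 (SE 0.196, edgeR adjusted p = 0.0221), in a fit in which 18.5% of all tested genes passed. In this and every other fit without WT1A, the WT side was only WT2A and WT2B. These carry the same number and were the most alike pair, so their spread may be technical. With same-numbered libraries summed, Rorb had 0.47 (SE 0.315, edgeR adjusted p = 0.557). The deposited Rorb model is 9277 bases long, and long transcripts were higher in C234W libraries in general: the median log2 fold change was 0.28 in the fifth of tested genes with the longest models and -0.34 in the fifth with the shortest. With each library's trend on length removed, Rorb had 0.25 (SE 0.252, edgeR adjusted p = 0.616). The table counts the Rorb isoform with the more upstream of 2 RefSeq starts (NM_001043354, chr19:18930609-19111196, minus strand, mm10). The 250 bases before that start are shown because, of the 10 factors, Rorb was the 1 whose window held TGCTGAC, the core of the element bound by Nrl and other Maf proteins, 77 bases before the start and in capitals (RefSeq, GRCm38.p6, chr19:19111197-19111446, minus strand):
Rorb: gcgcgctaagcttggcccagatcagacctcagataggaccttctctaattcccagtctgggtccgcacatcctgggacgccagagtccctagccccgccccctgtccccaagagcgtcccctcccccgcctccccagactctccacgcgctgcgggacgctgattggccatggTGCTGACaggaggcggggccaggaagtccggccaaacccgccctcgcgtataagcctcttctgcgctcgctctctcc
TGCTGAC on either strand occurred in 3.54% of the windows of all tested genes.

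Mef2d, a MADS-box factor that works beside Crx, was at 782.6, 557.3 and 722.7 CPM in the C234W libraries FS3A, FS3B and FS5A, against 894.8, 631.1 and 620.2 CPM in WT1A, WT2A and WT2B. The groups were interleaved, with WT1A highest and FS3B lowest, and the log2 fold change was -0.057 (SE 0.210, edgeR adjusted p = 0.89). Its sign turned under total-count scaling, without FS3B and without WT1A.

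Nrl, the leucine zipper factor without which rods do not form, was the factor with the highest level and one of the widest spreads. It was at 1522, 1364 and 2035 CPM in the C234W libraries FS3A, FS3B and FS5A, against 3790, 1893 and 1942 CPM in WT1A, WT2A and WT2B. WT1A stood far above the other WT libraries, FS3A and FS3B were the lowest, and FS5A lay above WT2A and WT2B. The log2 fold change was -0.63 (SE 0.302, edgeR adjusted p = 0.224), and without WT1A it was -0.22 (SE 0.201, adjusted p = 0.469).

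Nr2e3, the nuclear receptor through which Nrl raises rod genes and silences cone genes, was at 418.9, 437.4 and 928.1 CPM in the C234W libraries FS3A, FS3B and FS5A, against 1271, 736.5 and 776.0 CPM in WT1A, WT2A and WT2B. FS3A and FS3B lay well below the WT libraries, while FS5A lay above WT2A and WT2B. For Nr2e3 the log2 fold change was -0.64 (SE 0.343, edgeR adjusted p = 0.27). It was -1.12 (SE 0.278, adjusted p = 0.101) without FS5A and -0.34 (SE 0.338, adjusted p = 0.507) without WT1A.

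Esrrb, an oestrogen-related receptor that is on in rods and supports their survival, was at 888.6, 680.3 and 908.1 CPM in the C234W libraries FS3A, FS3B and FS5A, against 1509, 844.0 and 976.7 CPM in WT1A, WT2A and WT2B. WT1A was again the highest library and FS3B the lowest, and WT2A lay between the C234W libraries. The log2 fold change was -0.43 (SE 0.244, edgeR adjusted p = 0.299) and -0.14 (SE 0.181, adjusted p = 0.628) without WT1A. With the length trend removed it was -0.55 (SE 0.241, adjusted p = 0.257), and the 3 C234W libraries then lay below the 3 WT libraries. The groups nearly met, with FS5A at -0.104 and WT2A at -0.086 as log2 deviations from the mean over libraries. No share over all tested genes was computed for values with the trend removed, so this is not read as a separation.

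The cone factors were low and close between genotypes. Thrb, the thyroid hormone receptor that turns on the medium-wavelength opsin, was at 82.5, 86.4 and 82.9 CPM in the C234W libraries FS3A, FS3B and FS5A, against 94.7, 84.0 and 77.3 CPM in WT1A, WT2A and WT2B. The C234W libraries lay within the WT range, and the log2 fold change was -0.024 (SE 0.142, edgeR adjusted p = 0.936). Thrb is among the longest models at 5985 bases, and with the length trend removed it had -0.23 (SE 0.136, adjusted p = 0.365). The C234W libraries then lay below the WT libraries, the nearest being FS3B at -0.059 and WT2B at 0.016 as log2 deviations. Here too no share over all tested genes was computed. The counted model (NM_001113417, chr14:17660960-18038088, plus strand, mm10) begins at the more upstream of 2 RefSeq starts, so a form that begins at the other start is measured only through exons it shares. Rxrg, a retinoid X receptor that in mice helps keep short-wavelength opsin off, was at 7.94, 10.5 and 8.66 CPM in the C234W libraries FS3A, FS3B and FS5A, against 7.84, 8.72 and 7.95 CPM in WT1A, WT2A and WT2B. FS3B was highest and the other 5 libraries lay close together, with 108.5 to 222 counts behind each value. Its log2 fold change was 0.15 (SE 0.219, edgeR adjusted p = 0.707).

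**Figure D2:**
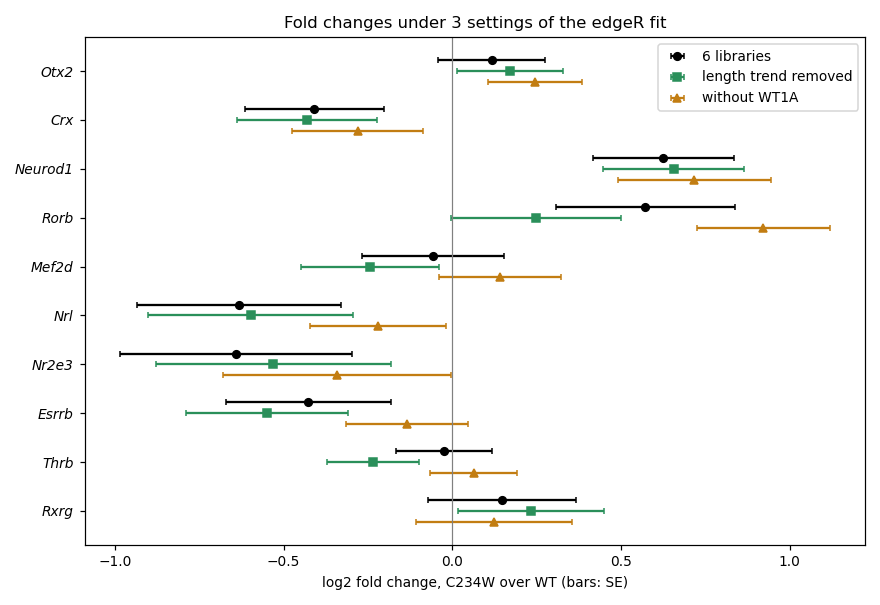
Log2 fold change of each factor, C234W over WT, with its SE, in the edgeR fit of 6 libraries, with each library's trend on transcript length removed, and without WT1A. Rorb ranges from 0.25 to 0.92 over the 3 settings and Nrl from -0.63 to -0.22, while Neurod1 stays between 0.62 and 0.72. Neurod1 fell to 0.38 without FS3A, a setting that is not drawn.

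A single library held the highest value for most of the factors. WT1A was highest for 6 of the 10, namely Crx, Nrl, Nr2e3, Mef2d, Esrrb and Thrb, where it was highest for 16.5% of all tested genes. It was also the highest library for 14 of 16 rod targets. FS3B was the lowest library for 4 of the 10 factors, against 19.3% of all tested genes. Of the 13 pigment epithelium markers, 9 were highest in WT1A as well, 3 in FS5A and 1 in FS3B, and their part in these levels was not tested.

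**Figure D3:**
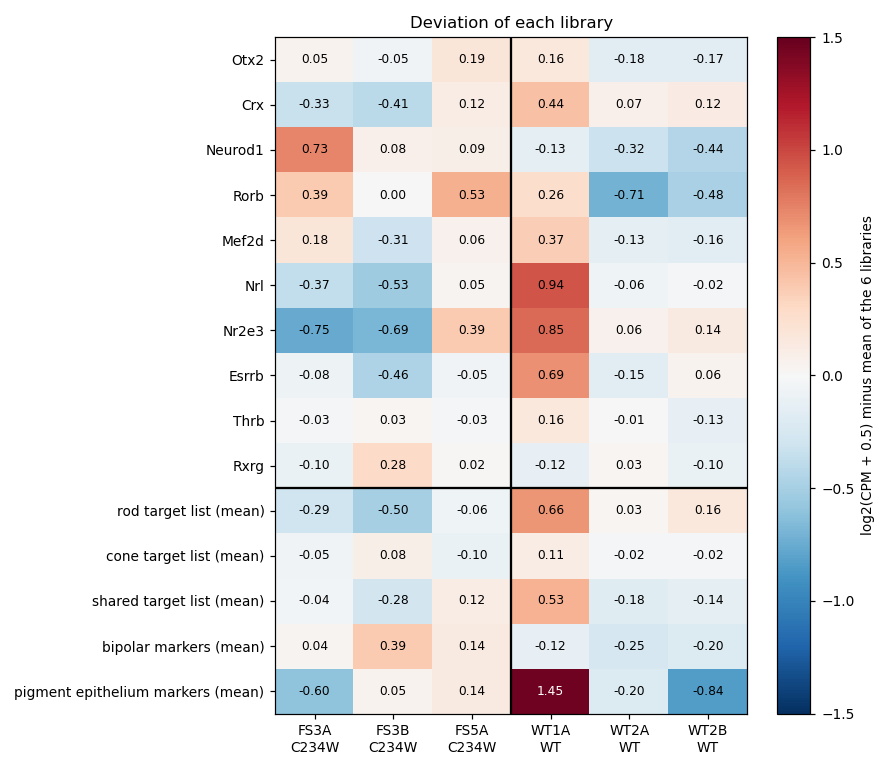
Deviation of each library from the mean of the 6 libraries, in log2(CPM + 0.5), for the 10 factors and for the mean of the genes of 3 target lists and 2 marker lists, with C234W libraries on the left. Nrl, Nr2e3 and Esrrb are highest in WT1A, at 0.94, 0.85 and 0.69 above their means, the same library in which the mean of the pigment epithelium markers is 1.45 above its own.

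Ratios of counts between 2 factors within a library do not depend on how libraries are scaled, so they were compared as well. Of the 45 pairs of factors, 19 had ratios that did not overlap between the genotypes. Neurod1 took part in 7 of these among its 9 pairs, where 39.4% of all tested genes had a ratio to Neurod1 that did not overlap. For Otx2, Rorb and Mef2d it was 5 of 9 pairs each, against backgrounds of 26.6%, 24.6% and 21.7%. For Nrl and for Crx it was 4 of 9 each, against 33.9% and 34.9%, for Esrrb 4 of 9 against 30.7% and for Nr2e3 3 of 9 against 24.4%. Thrb had 1 of 9 against 27.8% and Rxrg 0 of 9 against 24.4%. With 3 libraries against 3, an exact two-sided permutation test of a single ratio cannot give a p below 0.1, so the ratios are described without a test, and the pairs below were chosen after their values were seen.

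Nrl counts were 3.54, 4.97 and 7.39 times Neurod1 counts in FS3A, FS3B and FS5A, against 16.0, 9.13 and 10.1 times in WT1A, WT2A and WT2B. All 3 C234W libraries lay below all 3 WT libraries, and the models are alike in length, at 2478 and 2492 bases. The ratio of Nrl to Rorb was 3.23, 3.81 and 3.92 in the C234W libraries in the same order and 8.80, 8.62 and 7.57 in the WT libraries, so that WT1A did not stand apart. With the length trend removed it was 3.74, 4.10 and 4.54 in the C234W libraries and 7.96, 7.76 and 6.35 in the WT libraries, still without overlap. Rorb counts were 0.530, 0.526 and 0.571 of Esrrb counts in the C234W libraries and 0.285, 0.260 and 0.263 in the WT libraries. The SDs were 0.0248 and 0.0138. The models differ in length, at 9277 and 4190 bases. With the length trend removed the ratio was 0.482, 0.515 and 0.522 in the C234W libraries and 0.302, 0.273 and 0.290 in the WT libraries. Crx to Otx2, a factor and its activator, was 5.77, 5.88 and 7.17 in the C234W libraries and 9.10, 8.96 and 9.21 in the WT libraries. Removing the length trend left 19 pairs without overlap, 15 of them among the 19 seen before. No share over all tested genes was computed for ratios with the trend removed, so this count has no background. The pairs also share factors and are not independent of each other.

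**Figure D4:**
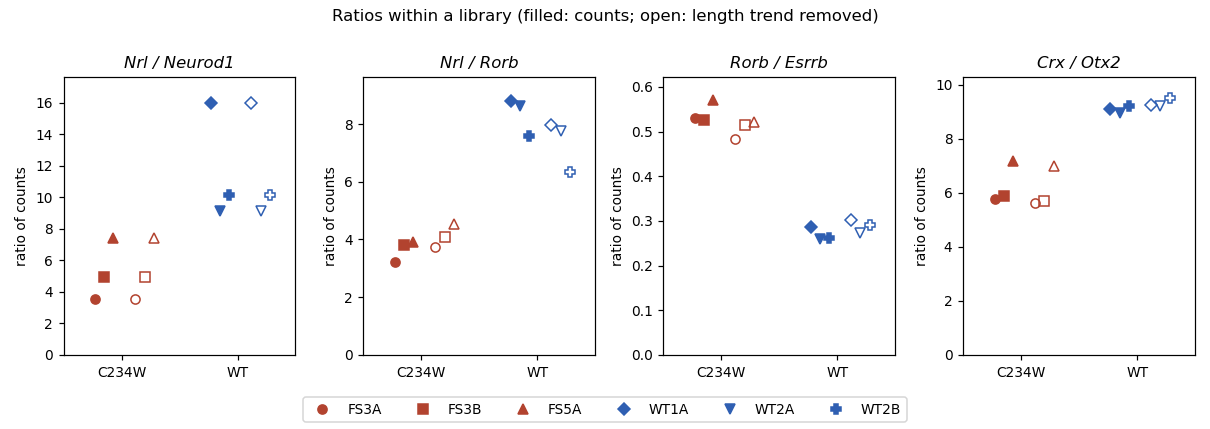
Ratio of counts within each library for 4 pairs of factors, with C234W on the left and WT on the right; filled symbols are counts as deposited and open symbols have the length trend of each library removed. In all 4 panels the C234W and WT libraries do not overlap, with Rorb to Esrrb higher and the other 3 ratios lower in C234W.

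Rod targets are genes that Nrl, Crx and Nr2e3 are known to drive, most but not all of them parts of the light response. They were lower in most cases without passing the threshold. Of 16 rod targets 0 passed in edgeR, 9 had an unadjusted p under 0.05 and all 9 were lower, against 13.5% of all tested genes lower at that level. The same number, 9, had C234W libraries that lay below the WT libraries without overlap, against 16.4% of all tested genes. Their median log2 fold change was -0.72, beside -0.040 for the 10 factors and 0.023 for all tested genes. Without WT1A these medians were -0.48, 0.093 and 0.040, and with the length trend removed -0.62, -0.24 and 0.0032. The median of the factors pools both directions: Nrl, Nr2e3 and Crx had -0.63, -0.64 and -0.41, and Neurod1 and Rorb 0.62 and 0.57. DESeq2 called 9 rod targets and limma-voom 2, all lower, where they called 11.9% and 1.63% of the genes they tested.

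Gnat1, the rod transducin subunit, was at 13545, 13445 and 17246 CPM in FS3A, FS3B and FS5A, against 33481, 19726 and 22937 CPM in WT1A, WT2A and WT2B. Its groups did not overlap, and the log2 fold change was -0.78 (SE 0.264, edgeR adjusted p = 0.12). The rod target with the smallest p was Pde6g, the inhibitory subunit of the rod phosphodiesterase, with -1.04 (SE 0.213, edgeR adjusted p = 0.0514). It passed in edgeR without WT1A (adjusted p = 0.0179), where 18.5% of all tested genes passed. DESeq2 called it and Gnat1 (adjusted p = 0.000144 and 0.0172). With the length trend removed Pde6g had -0.65 (SE 0.224, edgeR adjusted p = 0.183). With same-numbered libraries summed it had -1.08 (edgeR adjusted p = 0.379). Rod targets were also set against each library's own factors. The mean log2 CPM of the rod targets minus that of Nrl was 0.40, 0.36 and 0.21 in FS3A, FS3B and FS5A, against 0.036, 0.41 and 0.50 in WT1A, WT2A and WT2B, a difference of 0.0073 with overlapping groups. This rested on WT1A: without it the difference was -0.13. The groups then did not overlap but nearly met, with FS3A at 0.399 and WT2A at 0.412. That was 3 libraries against 2, with no share over all tested genes computed, so it is not read as a separation. Minus Crx, the difference of the means was -0.15, and -0.073 without WT1A. Minus Nr2e3 the difference was 0.13, of opposite sign and with overlapping groups, and it was not computed without WT1A. Minus Neurod1, the factor with the highest fold change, the difference was -1.16, and -1.06 without WT1A. A factor that is itself higher in C234W libraries makes this difference more negative. The value for Neurod1 is therefore not read as a separate result about the rod targets.

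Of 13 cone targets tested, 1 fell, 0 rose and 12 did not pass, where 1.28% of all tested genes fell and 0.184% rose. At an unadjusted p under 0.05, 3 were lower and 0 higher, against 13.5% and 11.9% of all tested genes, and 2 were lower without overlap, against 16.4%. DESeq2 called 3, all lower, where it called 11.9% of the genes it tested. The median log2 fold change of the list was 0.018, with 7 members above 0 and 6 below. The gene that fell was Pde6h, the inhibitory subunit of the cone phosphodiesterase, at 114.5, 95.0 and 90.4 CPM in the C234W libraries FS3A, FS3B and FS5A, against 171.8, 281.7 and 296.2 CPM in WT1A, WT2A and WT2B. Its log2 fold change was -1.32 (SE 0.224, edgeR adjusted p = 0.0484). It is shown because its upstream sequence holds the E-box CAGATG, a form that Neurod1 binds, at 3 places, 231, 202 and 80 bases before the start, each on the opposite strand and written CATCTG in capitals (RefSeq, GRCm38.p6, chr6:136954273-136954522, plus strand):
Pde6h: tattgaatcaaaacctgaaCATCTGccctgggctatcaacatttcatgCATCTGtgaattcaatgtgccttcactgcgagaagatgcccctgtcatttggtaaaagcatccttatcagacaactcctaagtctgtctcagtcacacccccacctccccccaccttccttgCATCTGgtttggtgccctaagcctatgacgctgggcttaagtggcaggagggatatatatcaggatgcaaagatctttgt
This E-box on either strand occurred in 11.3% of the windows of all tested genes, in 3 of 10 cone targets with a window and in 1 of the 10 factors, Nrl. Opn1sw, the short-wavelength opsin, was at 238.8, 670.5 and 634.4 CPM in the C234W libraries and at 431.7, 201.2 and 501.6 CPM in the WT libraries. Opn1mw, the medium-wavelength opsin that Thrb turns on, was at 141.6, 101.9 and 101.6 CPM in the C234W libraries and at 195.5, 145.0 and 60.8 CPM in the WT libraries. Both overlapped between genotypes (log2 fold changes 0.44, SE 0.423, and -0.22, SE 0.361; edgeR adjusted p = 0.538 and 0.739). Arr3, the cone arrestin, had -0.95 (SE 0.323, adjusted p = 0.124) with overlapping libraries. DESeq2 called Arr3 (adjusted p = 0.0358). In edgeR it passed without WT1A (-1.22, adjusted p = 0.0196), where 18.5% of all tested genes passed, and had -0.60 (adjusted p = 0.367) without WT2A.

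Of 24 targets that rods and cones share, 2 fell, 0 rose and 22 did not pass, where 1.28% of all tested genes fell, and the median was -0.14. At an unadjusted p under 0.05, 5 were lower and 1 higher, or 25% of the list, near the 25.4% of all tested genes. Unc119, a carrier of lipid-modified transducin, was at 1597, 1594 and 1983 CPM in the C234W libraries FS3A, FS3B and FS5A, against 3575, 3466 and 3601 CPM in WT1A, WT2A and WT2B, with -1.04 (SE 0.180, edgeR adjusted p = 0.0484). Guca1a, the calcium sensor that controls guanylate cyclase, was at 1121, 1027 and 1363 CPM in the C234W libraries and at 2628, 2017 and 2297 CPM in the WT libraries, with -0.98 (SE 0.194, adjusted p = 0.0497). For both genes all C234W libraries lay below all WT libraries. The calls of Pde6h, Unc119 and Guca1a were lost with the length trend removed, where their log2 fold changes were -0.78, -0.78 and -0.58 (edgeR adjusted p = 0.131, 0.128 and 0.183). They were lost as well under RLE, upper-quartile and total-count scaling (adjusted p = 0.0513 for each under total counts) and without any 1 of FS3A, FS3B, FS5A, WT2A and WT2B, and kept without WT1A. With same-numbered libraries summed, each had an adjusted p of 0.379 in edgeR.

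TAATCC, the letters read by Crx and Otx2, occurred in the windows of 5 of 10 rod targets, 8 of 19 shared targets and 2 of 10 cone targets for which RefSeq windows were given, against 5.97% of all tested genes. Guca1a is shown as the fallen gene that holds both TAATCC, read as GGATTA 57 bases before the start, and the nuclear receptor core AGGTCA, 113 bases before it, in capitals (RefSeq, GRCm38.p6, chr17:47400607-47400856, minus strand):
Guca1a: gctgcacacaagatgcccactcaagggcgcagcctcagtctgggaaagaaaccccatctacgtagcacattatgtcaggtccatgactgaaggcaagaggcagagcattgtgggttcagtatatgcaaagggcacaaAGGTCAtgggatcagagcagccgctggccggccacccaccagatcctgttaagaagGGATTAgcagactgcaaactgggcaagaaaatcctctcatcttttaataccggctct
AGGTCA on either strand, a core shared by Rorb, Nr2e3, Esrrb, Thrb and Rxrg in variant forms, occurred in 11.8% of all windows and in 1 of the 10 factors, Thrb. Among targets with a window it occurred in 4 of 10 rod, 4 of 19 shared and 1 of 10 cone targets.

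Other regulators of photoreceptor genes, 18 in number and ranging from Prdm1 to the coactivators Ep300 and Crebbp, had a median of 0.12. Of these 0 passed in edgeR, while 2 were higher and 4 lower at an unadjusted p under 0.05, against 11.9% and 13.5% of all tested genes. The smallest p was that of Samd7, a rod protein that represses non-rod genes, at 421.5, 235.9 and 439.7 CPM in the C234W libraries FS3A, FS3B and FS5A, against 538.4, 1008 and 1069 CPM in WT1A, WT2A and WT2B. Its C234W libraries lay below the WT libraries, and the log2 fold change was -1.25 (SE 0.316, edgeR adjusted p = 0.0665). DESeq2 called it (adjusted p = 0.00239), and it passed in edgeR without WT1A (adjusted p = 0.0139), where 18.5% of all tested genes passed. TAATCC occurred in the windows of 2 of 15 other regulators, against 5.97% of all tested genes. The sequence before Samd7 holds TAATCC, read as GGATTA in capitals, 139 bases before the start (RefSeq, GRCm38.p6, chr3:30746043-30746292, plus strand):
Samd7: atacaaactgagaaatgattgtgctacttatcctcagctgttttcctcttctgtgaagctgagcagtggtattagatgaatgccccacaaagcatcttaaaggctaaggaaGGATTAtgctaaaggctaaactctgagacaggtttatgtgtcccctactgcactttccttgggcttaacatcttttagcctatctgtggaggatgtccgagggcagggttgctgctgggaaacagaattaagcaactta

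Of 18 tested relatives of the 10 factors in the same families, 0 passed in edgeR, with 2 higher and 1 lower at an unadjusted p under 0.05, against 11.9% and 13.5% of all tested genes, and the median was -0.26. The smallest p was that of Neurod4, a relative of Neurod1 with a part in bipolar and amacrine cells. Neurod4 was at 153.9, 191.6 and 129.3 CPM in the C234W libraries FS3A, FS3B and FS5A, against 96.0, 49.3 and 62.0 CPM in WT1A, WT2A and WT2B. The C234W libraries lay above the WT libraries, and the log2 fold change was 1.20 (SE 0.259, edgeR adjusted p = 0.0549). DESeq2 called Neurod4 (adjusted p = 0.000837), and it passed in edgeR without WT1A (adjusted p = 0.0124), where 18.5% of all tested genes passed. The other 2 relatives of Neurod1 in the list, Neurod2 and Neurod6, had overlapping libraries and log2 fold changes of -0.011 (SE 0.171) and 0.029 (SE 0.488). Bipolar markers were higher in part: 5 of 11 lay higher in C234W without overlap, against 12.6% of all tested genes. Lower without overlap was 1, against 16.4%. By sign alone, 7 had a log2 fold change above 0 and 4 below. The 11 markers summed to 1077 to 1200 CPM in C234W and 800.2 to 921.9 CPM in WT libraries. The part of bipolar cells in the levels of Neurod4, Neurod1 and Otx2 was not tested.

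**Figure D5:**
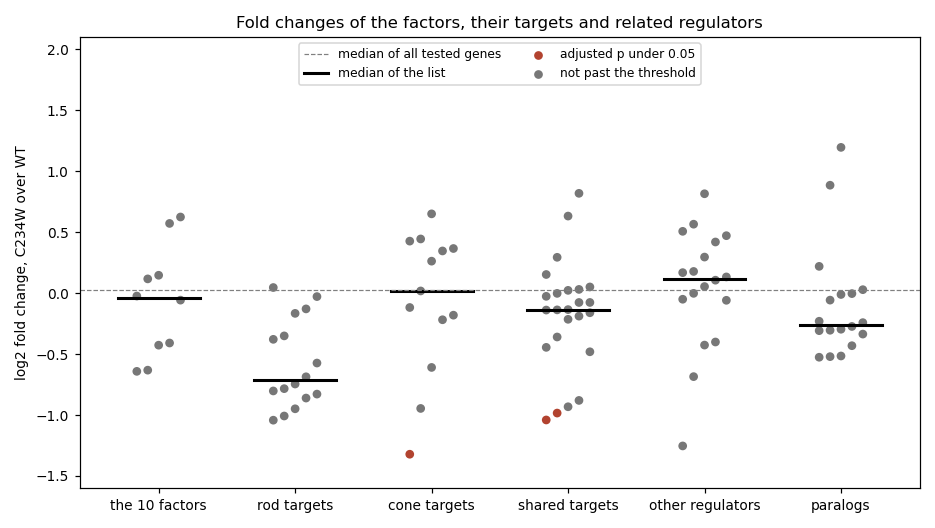
Log2 fold change, C234W over WT, of the 10 factors, their rod, cone and shared targets, other regulators and family relatives, with each list's median as a black bar and the median of all tested genes as a dashed line. Red points passed an adjusted p under 0.05 in edgeR (Pde6h, Unc119 and Guca1a). The rod targets have a median of -0.72 and the factors, 4 above 0 and 6 below, of -0.040.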

How the data were processed

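Polyadenylated RNA of whole retina was sequenced in 3 C234W and 3 WT libraries. STAR (2.7.8a per the submitters' processing notes) aligned the reads to mm10, and the series' design text states that HOMER then quantified exonic tags with a unique position, minus strand, taking 1 isoform for each locus. The authors deposited these as raw estimated counts, without normalization per the file headers, with a step of 0.5. Values that were not whole made up 28.3 to 32.1% of each library and were rounded for the count tests. No sample column was left out. In a chi-square over genes, WT2A and WT2B were by far the most alike, at 10.4 per degree of freedom against 32.3 to 117.7 for the other pairs. No pair agreed within counting noise, so none was treated as 1 library deposited more than once; whether libraries share an animal was not tested by this.

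Genes were filtered by filterByExpr, scaled by TMM and tested with edgeR (4.0.16, R 4.3.3) with robust dispersion and no covariate. TPM was computed from the counts and the deposited model lengths. Other scalings (RLE, upper quartile, total counts), filters and tools (DESeq2 1.42.0, limma-voom 3.58.1) were tried, as were unrounded counts, removal of a loess trend on transcript length (span 0.3), same-numbered libraries summed, and each library left out. Scripts were tested on simulated data. Coordinates of genes are the deposited ones on mm10, and promoter sequences are from RefSeq (GRCm38.p6), scanned on both strands for the letters given, overlaps allowed.

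The members, lists, motifs and tests were chosen with earlier results of these data known. Named are the 10 factors, Gnat1, Opn1sw, Opn1mw and Arr3, and in each list the 2 members with the smallest p among those past the threshold or, in a list with no such member, the gene whose p was smallest. A further gene under this rule is not reported here.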

Additional observations from a re-analysis of the deposited data

How the results depend on the processing

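No paired analysis was possible because the columns of the table carry no replicate number of the labels. Over the 16 alternatives, 8 of the 10 factors kept the sign of their log2 fold change. Mef2d turned to 0.13 under total-count scaling, 0.075 without FS3B and 0.14 without WT1A, and ranged from -0.16 to 0.14 when a library was left out. Thrb turned to 0.16 under total-count scaling and 0.063 without WT1A (-0.088 to 0.063 when a library was left out), and Opn1mw to 0.072 with the length trend removed and 0.16 without WT1A (-0.56 to 0.16). The median over tested genes was 0.20 under total-count scaling, against 0.023 under TMM. The number of factors past the threshold, 0, was 1 with DESeq2 (Neurod1) and ranged from 0 to 1 when each library was left out (Rorb without WT1A).

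The count of all genes past the threshold, 215, was 0 under RLE, upper-quartile and total-count scaling (3753, 3805 and 4349 genes at an unadjusted p under 0.05), with the length trend removed (2835) and with same-numbered libraries summed (1750), 353 with no filter and 1719 with DESeq2, and ranged from 0 to 2775 when a library was left out. It was 2775 without WT1A, 4 without FS5A and 0 without any one of the other 4 (2141 to 3592 genes at an unadjusted p under 0.05). Without WT1A the WT side was only WT2A and WT2B, the most alike pair, whose spread may be technical. The count of rod targets, 0, was 2 with no filter, 9 with DESeq2 and 2 with limma-voom. DESeq2 called 11.9% and limma-voom 1.63% of the genes they tested. When a library was left out the count of rod targets ranged from 0 to 5, with 5 without WT1A, where 18.5% of all tested genes passed. The count of cone targets, 1, and of shared targets, 2, was 0 under RLE, upper-quartile and total-count scaling, with the length trend removed and with same-numbered libraries summed. With DESeq2 they were 3 and 5, beside the same 11.9% of genes. When a library was left out they ranged from 0 to 5 and from 0 to 7, both highest without WT1A and 0 without any other library. The cause of these shifts was not tested, and the adjusted p of the calls lies just under the threshold, at 0.0484 and 0.0497.

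The log2 count ratios, compared by settings chosen after seeing the data, kept their sign. Leaving out a library could not turn it, because the groups of these pairs do not overlap. Only removal of the length trend could have done so. With the length trend removed, the difference for Nrl to Rorb was -0.83, against -1.19 in the counts, and that for Rorb to Esrrb 0.81, against 1.01.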
